A study of Bos taurus with 2 samples.

Results

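The genes described here encode enzymes of glycolysis, from hexokinase to pyruvate kinase, in nuclei of cattle (Bos taurus), from blastoids and from blastocysts. The list held 10 symbols (HK1, HK2, PFKP, PFKL, ALDOA, GAPDH, PGK1, ENO1, PKM and LDHA). They were looked up by symbol among the 35643 features counted in both libraries. Symbols were found for 9 of the 10, each for 1 feature, and the lactate dehydrogenase LDHA had none and was not analysed here. The study compared 1 library of blastoids with 1 library of day 8 blastocysts, both labelled wild type, by droplet single-nucleus RNA sequencing of frozen material. The blastoids, blastocyst-like structures, were assembled from 8 bEPSC, 8 bXEN and 16 bTSC cells per microwell, in a medium with 20 ng/ml LIF and 10 ng/ml activin A among other additives. The blastocyst library has no treatment in its labels beyond the text that both samples share. The number of structures or embryos pooled in a library is not given in the sources used here. With 1 library per group there was no replicate, and no test or p-value across samples was possible.

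Glycolysis turns glucose into pyruvate in the cytosol. Hexokinases trap glucose as glucose 6-phosphate, phosphofructokinase commits the sugar to the pathway, aldolase splits it, and GAPDH, PGK1, enolase and pyruvate kinase carry out the later steps that yield ATP. Mammalian embryos take up pyruvate and lactate at first and use more glucose from compaction to the blastocyst. The blastocyst has an outer trophectoderm, which forms the placenta, and an inner cell mass that gives the epiblast, the source of the embryo proper, and the hypoblast, which lines the yolk sac. Messages of these enzymes are abundant in the cytoplasm, whereas the material sequenced was nuclei.

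The kept nuclei numbered 1914 in the blastoid library, with 7481886 unique molecular identifiers (UMIs, each standing for 1 captured transcript molecule), and 828 in the blastocyst library, with 6865534 UMIs. The libraries shared 1 cell barcode. Depth differed: 14.9% of the blastoid nuclei and 83.1% of the blastocyst nuclei had at least 4000 UMIs. Nuclei were clustered within each library without the enzymes, the marker genes and the other listed genes, and clusters were named from markers. The blastocyst gave 234 trophectoderm-like nuclei (GATA2, GATA3, TFAP2C and 6 other trophectoderm markers), 391 hypoblast-like nuclei (GATA6, GATA4, PDGFRA and 7 others) and 75 epiblast-like nuclei (NANOG, SOX2, PRDM14 and LIN28B). A shallow cluster of 128 blastocyst nuclei led by keratins, with a median of 1973.5 UMIs, stayed unnamed. The blastoid gave 154 trophectoderm-like nuclei, which rest on 6 trophectoderm markers (GATA2, GATA3, TFAP2A, TFAP2C, TEAD4 and WWC1) against 4 hypoblast and 3 epiblast markers. A second deep blastoid cluster of 141 nuclei, cluster 3, was led by LMX1A, LDB2, NLGN1 and DCC and stayed unnamed. It had 5 neural markers (DCC, CTNNA2, AUTS2, NCAM1 and ELAVL4), 2 hypoblast, 1 epiblast and 0 trophectoderm markers. Only epiblast, hypoblast and trophectoderm could give a name. The remaining 1619 blastoid nuclei formed 1 cluster with 15.7% of UMIs from ribosomal protein genes and a median of 1922 UMIs, called ribosomal-rich here. In the blastoid trophectoderm-like class 20 of the 21 trophectoderm markers with a symbol had more than 3 UMIs and summed to 4773 CPM (counts scaled to 1000000 UMIs of the class), and in the blastocyst class 19 of 21 did and summed to 3638 CPM. The hypoblast list summed to 5565 and 5487 CPM in these 2 classes, and HAND1 had under 4 UMIs in the blastoid class and 0 in the blastocyst class. The neural list summed to 9394 CPM in cluster 3 and 262 CPM in the blastoid trophectoderm-like class.

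Levels are the UMIs of a gene summed over the nuclei of a class, in CPM, with exact Poisson 95% intervals that cover counting error only. A level is compared between classes, not between genes, since no transcript lengths were used. The 9 enzymes together made up 823 CPM (787 to 861) in the trophectoderm-like nuclei of the blastocyst, 715 CPM (686 to 745) in the hypoblast-like nuclei and 733 CPM (674 to 795) in the epiblast-like nuclei. They made up 1395 CPM (1349 to 1443) in the blastoid trophectoderm-like nuclei, 1149 CPM (1102 to 1199) in blastoid cluster 3 and 4946 CPM (4869 to 5024) in the ribosomal-rich nuclei. In the keratin-led blastocyst cluster the sum was 1911 CPM (1790 to 2038). Of its 487642 UMIs, 337661 came from 35 nuclei of at least 4000 UMIs. Those summed to 1596 CPM (1464 to 1737), and the 93 shallower ones to 2620 CPM (2368 to 2893). A single barcode of 80592 UMIs held 106 of the cluster's 254 GAPDH UMIs. Blastoid classes were thus above the 3 named blastocyst classes in every case, and the 2 shallow clusters were the highest of their libraries. The sum hides opposite orders of its members, since HK1 and HK2 were not highest in the ribosomal-rich nuclei while the other 7 enzymes were (PFKP by less than its counting interval).

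**Figure D1:**
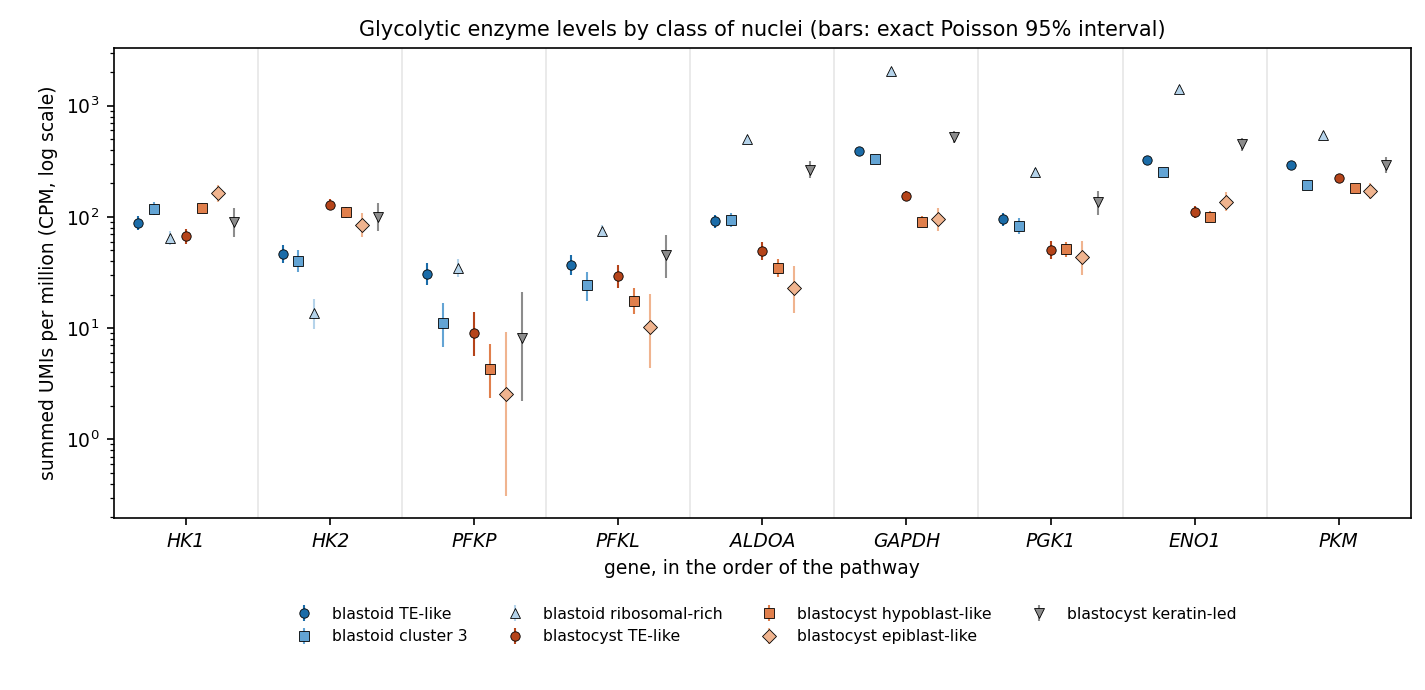
Level of each of the 9 enzymes in 7 classes of nuclei, in CPM on a log axis, with exact Poisson 95% intervals; genes stand in pathway order and colours mark the class. HK2 sits between 13.6 and 46.7 CPM in the 3 blastoid classes and between 85.4 and 129 CPM in the 4 blastocyst classes, while GAPDH spans 90.8 to 2061 CPM.

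Among the hexokinases, which carry out the first step, HK2 was lower in the blastoid. HK2, the hexokinase that many tissues induce when glucose use is high, had 46.7 CPM (38.5 to 56.2) in the blastoid trophectoderm-like nuclei, 40.5 CPM (32.0 to 50.7) in cluster 3 and 13.6 CPM (9.84 to 18.3) in the ribosomal-rich nuclei. In the blastocyst it had 129 CPM (115 to 144) in trophectoderm-like, 110 CPM (98.7 to 122) in hypoblast-like, 85.4 CPM (66.2 to 108) in epiblast-like and 100 CPM (74.3 to 133) in keratin-led nuclei. All 3 blastoid levels lay below all 4 blastocyst levels, and their intervals did not meet. The 3 named blastocyst classes stood in the order trophectoderm-like, hypoblast-like, epiblast-like, and in that order neighbouring intervals overlapped. The place of the epiblast-like class depended on how it was drawn: its log2 ratio of HK2 to the hypoblast-like class was -0.36 and ran from -1.28 to 0.65 over the alternatives, the highest with a marker gate that kept 11 epiblast-like nuclei. Between the trophectoderm-like classes, 113 HK2 UMIs in the blastoid against 298 in the blastocyst gave a ratio of 0.362 (0.289 to 0.452). The UMIs were spread over many nuclei, with HK2 seen in 61 of the blastoid and 138 of the blastocyst trophectoderm-like nuclei and at most 9 UMIs in any of them.

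Nuclei of the 2 classes differed in depth, with medians of 14620 and 8735 UMIs. When each nucleus was thinned to 2000 UMIs, HK2 was detected in 8.67% of 150 blastoid trophectoderm-like nuclei (exact 95% interval 4.70 to 14.4) and in 21.6% of 231 blastocyst ones (16.5 to 27.5), with 4 and 3 shallower nuclei left out. Thinned to 1000 UMIs, the shares were 6.58% (3.20 to 11.8) of 152 and 12.8% (8.82 to 17.8) of 234, with intervals that overlap. Without thinning they were 39.6% and 59.0%. In the ribosomal-rich nuclei the thinned share was 2.34% of 683 nuclei (1.35 to 3.78), with 936 left out as shallower. No class here is known to lack the enzymes, so a background share could not be set for the members themselves. The related gene HKDC1 was seen in 4 of 391 hypoblast-like nuclei without thinning, 1.02% (0.279 to 2.60).

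HK1, the hexokinase present in most tissues, followed another order. It had 163 CPM (136 to 194) in epiblast-like, 122 CPM (110 to 134) in hypoblast-like and 67.0 CPM (56.9 to 78.5) in trophectoderm-like nuclei of the blastocyst. In the blastoid it had 88.5 CPM (77.0 to 101) in trophectoderm-like nuclei, 118 CPM (103 to 135) in cluster 3 and 64.8 CPM (56.2 to 74.3) in ribosomal-rich nuclei. The blastocyst trophectoderm-like class was therefore below the hypoblast-like and epiblast-like classes, and the blastoid one below cluster 3. It was not below the 35 keratin-led nuclei of at least 4000 UMIs by more than counting error. Those had 68.1 CPM (43.2 to 102), beside 67.5 CPM (57.2 to 79.0) in the blastocyst trophectoderm-like nuclei of that depth. The HK1 level in the blastoid trophectoderm-like nuclei was 1.32 (1.07 to 1.63) times that in the blastocyst trophectoderm-like ones, a difference under 2-fold.

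The hexokinase domain-containing gene HKDC1, not in the list, was read beside them to show the composition of this step. It took 43.5% (39.4 to 47.7) of the 579 UMIs of HK1, HK2 and HKDC1 in the blastoid trophectoderm-like nuclei and 35.6% (32.0 to 39.2) of 703 in the blastocyst ones, but 0.524% (0.143 to 1.34) of 763 in hypoblast-like nuclei. In epiblast-like nuclei it had 0 UMIs, which allows up to 3.82 CPM when 3 UMIs are taken as the limit of a count of 0. Its level was 104 CPM in the blastoid and 108 CPM in the blastocyst trophectoderm-like nuclei, a ratio of 0.963 (0.806 to 1.15). HKDC1 thus marked both trophectoderm-like classes at a like level while HK2 differed between them. HK1 and HK2 took 37.0% and 19.5% of the 3 genes' UMIs in the blastoid trophectoderm-like nuclei, and 22.0% and 42.4% in the blastocyst ones. HKDC1 also took 37.5% (32.8 to 42.5) of the 397 UMIs in ribosomal-rich nuclei and 7.08% (4.54 to 10.4) of 325 in cluster 3.

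**Figure D2:**
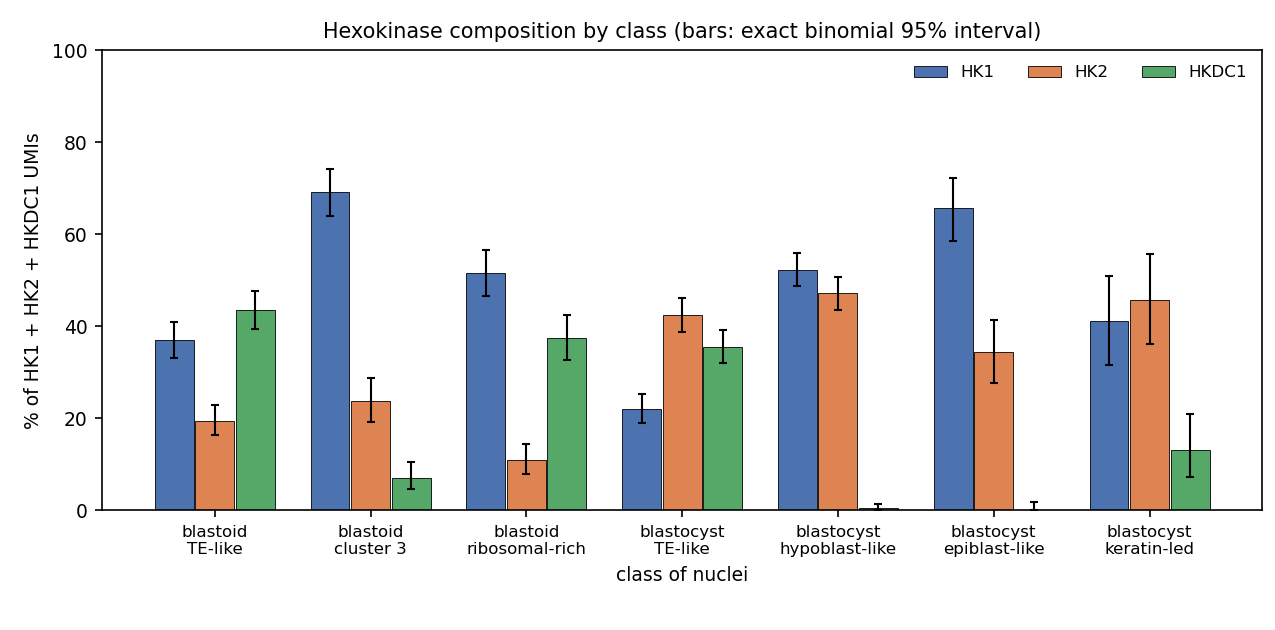
Share of HK1, HK2 and HKDC1 in the UMIs of the 3 genes together (vertical axis, %), for each of 7 classes of nuclei, with exact binomial 95% intervals. HKDC1 takes 43.5% and 35.6% in the 2 trophectoderm-like classes and 0.524% in hypoblast-like nuclei, and HK2 takes 19.5% in the blastoid and 42.4% in the blastocyst trophectoderm-like nuclei.

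Phosphofructokinase, the committing step, was measured through its platelet-type (PFKP) and liver-type (PFKL) genes, both at low counts. PFKP had 75 UMIs and 31.0 CPM (24.4 to 38.9) in the blastoid trophectoderm-like nuclei, against 21 UMIs and 9.08 CPM (5.62 to 13.9) in the blastocyst ones. The ratio was 3.41 (2.08 to 5.83), from 96 UMIs in all, just under the 100 UMIs required for a gene to be counted as at least 2-fold higher or lower. Cluster 3 had 11.1 CPM (6.84 to 16.9), an interval that meets that of the blastocyst trophectoderm-like nuclei, and ribosomal-rich nuclei had 34.8 CPM (28.6 to 41.9). The hypoblast-like and epiblast-like nuclei had 14 and 2 UMIs of PFKP. PFKL differed less, with 37.2 CPM (29.9 to 45.7) and 29.4 CPM (22.8 to 37.3) in the trophectoderm-like nuclei of blastoid and blastocyst, a ratio of 1.27 (0.913 to 1.76) whose interval includes 1. Of the UMIs of PFKP, PFKL and the muscle-type PFKM together, PFKP took 43.1% (35.6 to 50.8) of 174 in the blastoid and 22.6% (14.6 to 32.4) of 93 in the blastocyst trophectoderm-like class.

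From the split of the sugar onwards, levels were higher in the blastoid trophectoderm-like nuclei, past 2-fold for GAPDH and ENO1 and under 2-fold for ALDOA, PGK1 and PKM. Aldolase A, ALDOA, had 91.8 CPM (80.1 to 105) against 49.3 CPM (40.7 to 59.2), a ratio of 1.86 (1.48 to 2.35). GAPDH, which makes the first high-energy phosphate of the pathway, had 388 CPM (364 to 414) from 939 UMIs against 155 CPM (139 to 172) from 358 UMIs, a ratio of 2.51 (2.22 to 2.84). PGK1, the first ATP-yielding kinase, had 95.1 CPM (83.2 to 108) against 50.6 CPM (41.8 to 60.6), a ratio of 1.88 (1.5 to 2.37), and 14 of the 117 blastocyst UMIs came from 1 nucleus. ENO1, the general enolase, had 324 CPM (302 to 348) from 784 UMIs against 111 CPM (97.6 to 125) from 256 UMIs, a ratio of 2.93 (2.54 to 3.38). PKM, pyruvate kinase, had 293 CPM (272 to 315) against 224 CPM (205 to 244), a ratio of 1.31 (1.17 to 1.47). GAPDH and PGK1 have near-identical processed copies in mammalian genomes, and how reads shared by copies were counted is not given in the sources used here, so their levels are uncertain to that extent.

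Between the trophectoderm-like classes, 2 of the 8 enzymes with at least 100 UMIs in both sums together (GAPDH and ENO1) were at least 2-fold higher in the blastoid and 1 (HK2) was at least 2-fold lower. Of 7387 genes measured so, 13.6% were at least 2-fold higher and 11.5% at least 2-fold lower. The median log2 ratio of the 8 enzymes was 0.65 and that of all genes 0.02. Other abundant cytoplasmic messages were higher too: 4 of 8 (FTH1 and RPLP0 among them, at ratios of 2.65 and 2.67) were at least 2-fold higher, with a median log2 ratio of 1.01. In trophectoderm-like nuclei ribosomal protein genes took 2.49% of blastoid and 0.751% of blastocyst UMIs, and the part of this difference in the enzyme ratios was not tested. When nuclei were gated on markers in place of clusters, the log2 ratios of GAPDH and ENO1 were 0.87 and 0.94 in place of 1.33 and 1.55, below 2-fold, ALDOA was 0.26 in place of 0.90, and PFKP, then with over 100 UMIs, was the 1 enzyme at least 2-fold higher, at 1.69. With the keratin-led cluster added to the blastocyst class, an alternative chosen after seeing the data, they were 0.83 and 0.93, ALDOA was 0.07, and PFKP was again the 1 enzyme counted as higher.

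**Figure D3:**
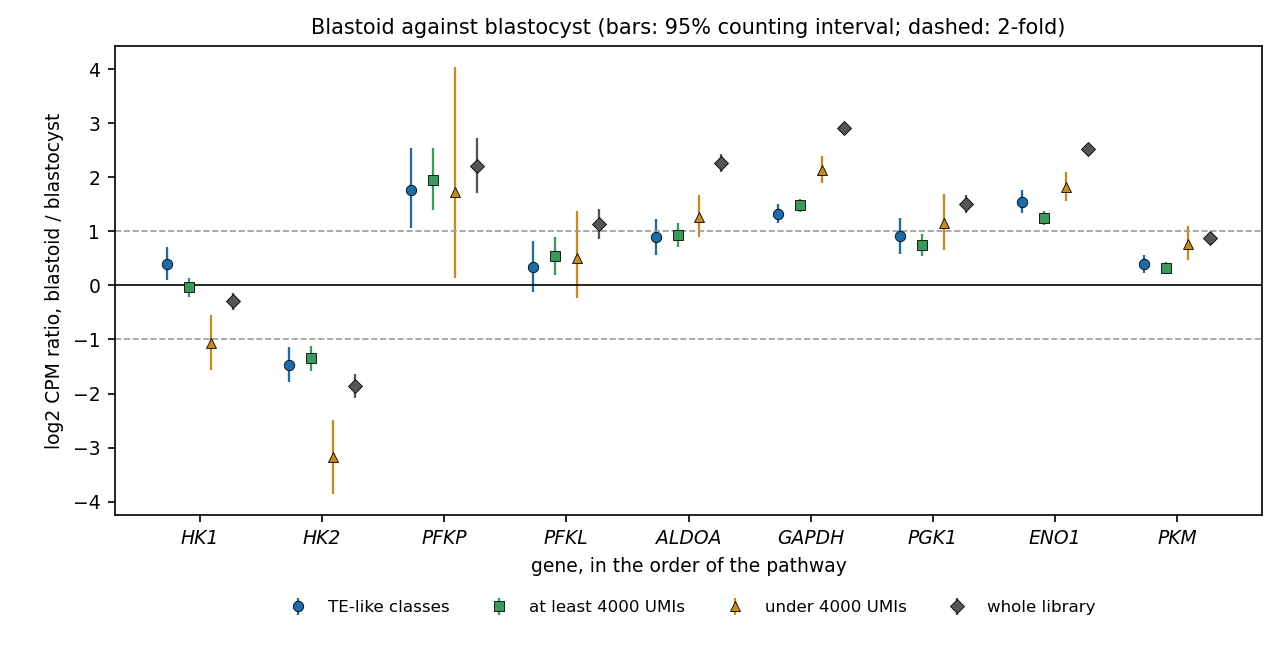
Log2 ratio of CPM, blastoid over blastocyst, for each of the 9 enzymes in 4 comparisons (trophectoderm-like classes, nuclei of at least 4000 UMIs, nuclei under 4000 UMIs, whole libraries), with 95% counting intervals and dashed lines at 2-fold. HK2 lies below the lower dashed line in all 4 comparisons, and GAPDH and ENO1 lie above the upper one, with the whole-library ratios the largest.

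The same contrast over the 286 blastoid and 688 blastocyst nuclei of at least 4000 UMIs gave the same direction for HK2 with 44.2 against 112 CPM, a ratio of 0.393 (0.334 to 0.462). PFKP, with 96 against 38 UMIs, had a ratio of 3.86 (2.63 to 5.78), GAPDH 2.79 (2.57 to 3.04) and ENO1 2.37 (2.16 to 2.59). The blastoid sum held 147 trophectoderm-like and 139 cluster 3 nuclei, and the blastocyst sum held 356 hypoblast-like, 223 trophectoderm-like, 74 epiblast-like and 35 keratin-led nuclei. PFKP, GAPDH and ENO1 (3 of 9 enzymes) were at least 2-fold higher and HK2 alone was lower, beside 15.1% and 12.6% of 10875 genes. HK1 was at 102 and 104 CPM, a ratio of 0.977 (0.865 to 1.1). ALDOA had a ratio of 1.90 (1.64 to 2.21), and without the 1 blastocyst barcode of the most UMIs its log2 ratio was 1.17, past 2-fold. That barcode, in the keratin-led cluster, held 80592 UMIs and 106 of the 850 GAPDH UMIs of the deep blastocyst nuclei.

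Among the 1628 blastoid and 140 blastocyst nuclei under 4000 UMIs, 5 of 8 enzymes were at least 2-fold higher in the blastoid and HK1 was lower, beside 24.0% and 29.2% of 5620 genes. GAPDH had 2055 against 469 CPM, a ratio of 4.38 (3.69 to 5.23), and ENO1 had 1402 against 396 CPM, a ratio of 3.54 (2.94 to 4.3). ALDOA and PGK1 had ratios of 2.42 (1.86 to 3.19) and 2.22 (1.56 to 3.24), and PFKP had 110 against 3 UMIs, a ratio of 3.31 (1.1 to 16.3). With the split at 3000 UMIs these 3 were under 2-fold, at log2 ratios of 0.57 for ALDOA, 0.82 for PGK1 and 0.83 for PFKP, which left 2 enzymes higher, and with means over nuclei ALDOA and PGK1 were under 2-fold, which left 3. HK1 had 64.4 against 136 CPM, a ratio of 0.475 (0.336 to 0.687), and under 6 alternatives, other scalings among them, it was not 2-fold lower. HK2, with 43 against 35 UMIs and so too few to be counted, had 13.5 against 122 CPM, a ratio of 0.111 (0.0694 to 0.179). The requirement of 100 UMIs bears on these counts, since the sums held 3181417 and 287544 UMIs. PFKP, PGK1 and ALDOA passed it through their blastoid UMIs, with 3, 33 and 59 UMIs in the blastocyst. GAPDH and ENO1 had 135 and 114 there. HK2 joined HK1 as lower when at least 20 UMIs were required. With the smaller blastocyst sum, these ratios are the least precise of the 4 comparisons. Over whole libraries, 6 of 9 enzymes were at least 2-fold higher in the blastoid (GAPDH the furthest at 7.54, 7.06 to 8.06) and HK2 was lower at 0.276 (0.238 to 0.320), beside 21.0% and 18.0% of 11943 genes. The whole-library ratios mix the classes in unequal parts, since ribosomal-rich nuclei were 84.6% of the kept blastoid nuclei.

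Most of the later enzymes also differed by 2-fold or more between the depth classes of each library. In the blastoid, nuclei under 4000 UMIs had 5.69 (5.38 to 6.02) times the GAPDH level of deeper nuclei, 5.38 (4.82 to 6.03) times that of ALDOA and 4.86 (4.56 to 5.18) times that of ENO1. PGK1, PFKL and PKM followed at 2.83, 2.37 and 2.17, so 6 of 9 enzymes were at least 2-fold higher, beside 21.0% of 9557 genes. HK2 was lower at 0.306 (0.214 to 0.428), from 43 against 190 UMIs, beside 43.5% of genes. In the blastocyst, ALDOA at 4.24 (3.16 to 5.62), GAPDH at 3.63 (3.01 to 4.36), ENO1 at 3.26 (2.65 to 3.97), PFKL at 2.43 (1.33 to 4.15) and PGK1 at 2.14 (1.45 to 3.07) were at least 2-fold higher in the shallow nuclei. These were 5 of 8 enzymes, with 0 lower, beside 11.0% and 9.53% of 8836 genes. PKM was under 2-fold, with 316 CPM (255 to 389) in shallow and 199 CPM (188 to 210) in deep blastocyst nuclei. HK1 and HK2 had ratios of 1.30 (0.915 to 1.79) and 1.08 (0.749 to 1.52) in the blastocyst, both intervals including 1. The depth classes held different clusters: 93 of the 140 shallow blastocyst nuclei were keratin-led, and 1619 of the 1628 shallow blastoid nuclei were ribosomal-rich. Within hypoblast-like nuclei, the 35 shallow and 356 deep ones had 38.3 (10.4 to 97.9) and 34.9 (28.7 to 42.1) CPM of ALDOA and 105 (52.5 to 188) and 90.3 (80.2 to 101) CPM of GAPDH. ENO1 had 182 (109 to 284) and 98.2 (87.6 to 110) CPM there, and PFKL 47.8 (15.5 to 112) from 5 UMIs and 16.7 (12.5 to 21.8). The 9 enzymes summed to 928 CPM (752 to 1132) in the shallow and 708 CPM (679 to 738) in the deep hypoblast-like nuclei, intervals that do not meet. The 11 shallow trophectoderm-like nuclei of the blastocyst had 0 UMIs of ALDOA among 29025, too few to read a level. With the depth classes split at 6000 UMIs in place of 4000, none of the blastocyst enzymes was 2-fold higher in the shallower nuclei.

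Shallow nuclei were also rich in other cytoplasmic messages. All 8 abundant cytoplasmic messages with a symbol, which include ACTB, FTH1 and RPLP0, were at least 2-fold higher in shallow than in deep nuclei of both libraries. Their median log2 ratios were 2.52 in the blastoid and 2.18 in the blastocyst. Of all genes, 21.0% were so in the blastoid and 11.0% in the blastocyst. RPLP0 and RPS3 of that list are ribosomal protein genes and enter the ribosomal protein share as well. Ribosomal protein genes took 15.6% of UMIs in shallow and 2.52% in deep blastoid nuclei, and 4.07% and 0.86% in the blastocyst. The trophectoderm list summed to 13262 CPM in the ribosomal-rich nuclei and 7218 CPM in the keratin-led cluster, of which the keratin KRT18 made up 6257 and 3601 CPM. The transcription factors of that list did not all stand the same way. GATA2 had 141 CPM in ribosomal-rich and 335 CPM in blastoid trophectoderm-like nuclei, and 92.3 CPM in keratin-led and 480 CPM in blastocyst trophectoderm-like nuclei. GATA3 had 58.2 against 175 CPM and 103 against 214 CPM in the same pairs. CDX2 had 58.8 against 36.8 CPM and MSX2 23.4 against 10.3 CPM in ribosomal-rich and blastoid trophectoderm-like nuclei, and CDX2 had 12.3 against 24.2 CPM in keratin-led and blastocyst trophectoderm-like nuclei. In the keratin-led cluster 1 barcode held much of the count. GAPDH had 521 CPM (459 to 589) from 254 UMIs with the barcode of 80592 UMIs and 364 CPM (307 to 427) without it, and ENO1 had 451 and 305 CPM. PFKL went from 45.1 to 24.6 CPM, a change of over 1.5 times.

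Single nuclei showed part of the same order. The 9 enzymes together took a median of 14 UMIs per 10000 (quartiles 11.3 and 18.4) in blastoid trophectoderm-like nuclei and 7.89 (5.72 and 11.1) in blastocyst ones, so that the quartile ranges did not meet. Medians were 11.5 in cluster 3, 6.47 in hypoblast-like and 6.43 in epiblast-like nuclei. The ribosomal-rich nuclei had a median of 48.2 and a lowest value of 6.02. The keratin-led cluster was the most spread, from 0 in 14 of 128 nuclei to 134 per 10000. Its median was 13.5, below that of the blastoid trophectoderm-like nuclei, although its summed level was above theirs. Across nuclei of 1 class, the enzyme share and the ribosomal protein share had a Spearman coefficient of 0.52 over 154 blastoid trophectoderm-like nuclei, 0.49 over 141 nuclei of cluster 3 and 0.59 over 128 keratin-led nuclei. The coefficient was 0.23 in 234 blastocyst trophectoderm-like, 0.06 in 391 hypoblast-like and 0.04 in 1619 ribosomal-rich nuclei. These are descriptions, since the nuclei share a library and both measures share each nucleus's depth. In the blastoid trophectoderm-like nuclei GAPDH alone had 0.48, ALDOA 0.39 and ENO1 0.37, PGK1 had 0.13, PKM 0.05 and PFKL -0.05, and HK1 had -0.06, HK2 -0.11 and PFKP -0.25.

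**Figure D4:**
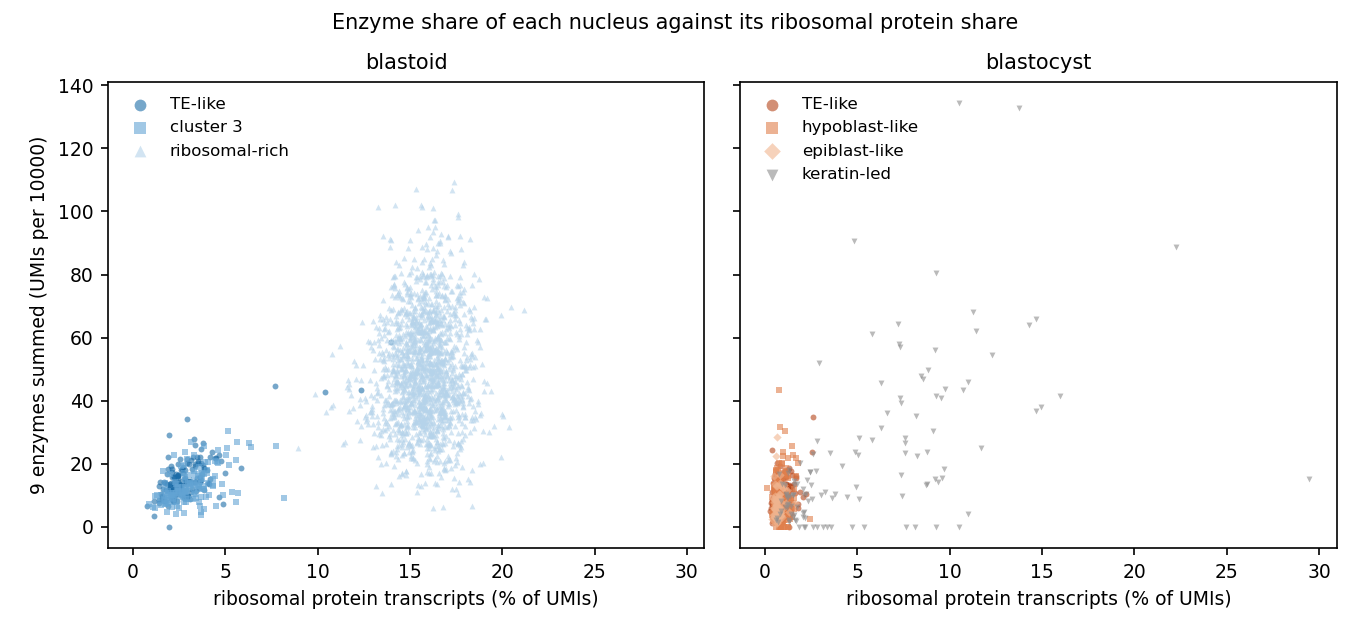
Each point is 1 nucleus: the summed UMIs of the 9 enzymes per 10000 UMIs against the percentage of UMIs from ribosomal protein genes, for the blastoid (left) and the blastocyst (right), with classes by colour and marker. Ribosomal-rich blastoid nuclei form a separate cloud around 15.8% on the horizontal axis and a median of 48.2 per 10000, and the deep classes of both libraries lie at low values of both.

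The ribosomal protein share was set beside each level as follows. The level of a gene in the ribosomal-rich nuclei was multiplied by 15.9%, the ribosomal protein share of the blastoid trophectoderm-like class over that of the ribosomal-rich nuclei. For GAPDH this scaled level was 328 CPM beside 388 CPM measured, for ENO1 223 beside 324 CPM and for ALDOA 79.2 beside 91.8 CPM. For HK2 it was 2.17 beside 46.7 CPM, for PFKP 5.54 beside 31.0 CPM, for HK1 10.3 beside 88.5 CPM and for PKM 86.3 beside 293 CPM. In cluster 3 the scaled level of GAPDH, 342 CPM, was above the 333 CPM measured, so the scaled level is no upper limit. Scaled in the same way from the keratin-led cluster, the blastocyst trophectoderm-like class had 49.2 beside 49.3 CPM for ALDOA, 96.1 beside 155 CPM for GAPDH, 83.3 beside 111 CPM for ENO1 and 18.5 beside 129 CPM for HK2. The keratin-led level of ALDOA was 267 CPM with the barcode of 80592 UMIs and 192 CPM without it. Scaled levels without that barcode were not computed. In hypoblast-like nuclei the scaled level of ALDOA, 51.4 CPM, was above the 35.0 CPM measured. The part of these transcripts in the measured levels was not tested.

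**Figure D5:**
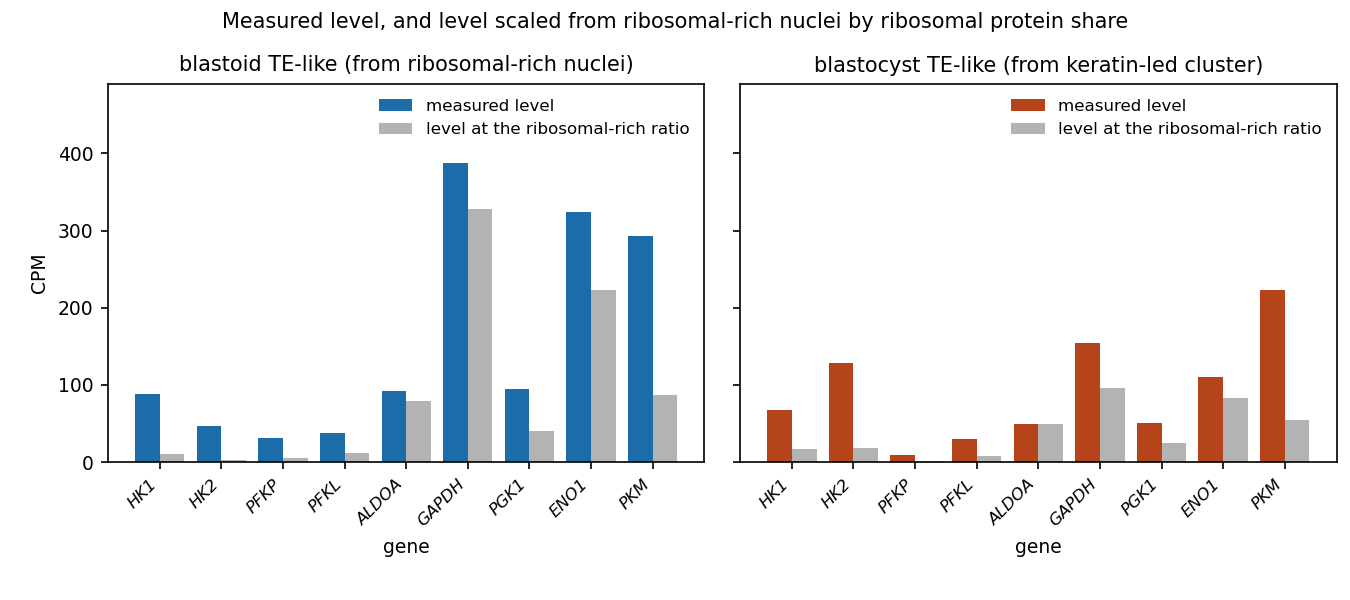
Measured level (coloured bars, CPM from 0) and level scaled by ribosomal protein share (grey bars) for 9 enzymes in the trophectoderm-like class of the blastoid and of the blastocyst. Grey bars are scaled from the ribosomal-rich nuclei in the blastoid and from the keratin-led cluster, with 4.07% ribosomal protein UMIs, in the blastocyst. In the blastoid the grey bar is at 328 CPM beside 388 CPM for GAPDH and at 2.17 CPM beside 46.7 CPM for HK2.

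Within the blastocyst, HK1 and ALDOA had the only 2-fold differences between named lineages among enzymes with at least 100 UMIs in the 2 sums. Between trophectoderm-like and hypoblast-like nuclei 0 of 8 enzymes were at least 2-fold higher or lower, beside 11.6% and 13.2% of 8053 genes. Among those 8, GAPDH was furthest up in trophectoderm-like nuclei at 1.70 (1.46 to 1.99), then PFKL at 1.66 (1.15 to 2.40), and HK1 was furthest down at 0.551 (0.455 to 0.665). PFKP, with 21 against 14 UMIs, had 2.13 (1.03 to 4.53). PGK1, ENO1 and HK2 had ratios of 0.988 (0.774 to 1.26), 1.1 (0.929 to 1.30) and 1.17 (1.00 to 1.37). Between epiblast-like and hypoblast-like nuclei 0 of 7 enzymes were called in either direction, beside 2.90% and 2.85% of 6853 genes. There HK1 had a ratio of 1.34 (1.09 to 1.64), ENO1 1.36 (1.09 to 1.70), GAPDH 1.05 (0.806 to 1.36) and HK2 0.778 (0.591 to 1.01). The direction of HK1 held over its 15 alternatives, while ENO1 fell to a log2 ratio of -0.59 when barcodes of at least 200 genes were kept and GAPDH and HK2 also changed sign under some. Trophectoderm-like against epiblast-like nuclei gave 1 of 7 enzymes at least 2-fold higher, ALDOA at 2.15 (1.30 to 3.76) from 114 against 18 UMIs, and 1 lower, HK1 at 0.411 (0.323 to 0.523), beside 17.4% and 11.5% of 5833 genes. With 7 enzymes, 1 in each direction is near those shares of all genes. ALDOA passed the requirement of 100 UMIs through its trophectoderm-like UMIs. It was not past 2-fold under 4 alternatives, means over nuclei among them. PFKL, with 68 against 8 UMIs and so not counted, had a ratio of 2.88 (1.38 to 6.95), which the marker gate took to a log2 ratio of -0.01. In the blastoid, trophectoderm-like nuclei against cluster 3 gave 0 of 8 enzymes in either direction, beside 16.3% and 15.7% of 7461 genes. The highest ratios among those 8 were 1.54 (1.07 to 2.24) for PFKL and 1.51 (1.33 to 1.72) for PKM, and PFKP, with 96 UMIs in all, had 2.80 (1.71 to 4.79).

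Among the other isozymes, ENO2, the enolase of neurons, had 24.2 CPM in cluster 3, 9.14 CPM in hypoblast-like nuclei and 1.24 CPM from 3 UMIs in the blastoid trophectoderm-like nuclei. It took a like share of the enolase UMIs in the first pair, 8.6% (6.36 to 11.3) of 535 in cluster 3 and 8.04% (5.49 to 11.3) of 373 in hypoblast-like nuclei.

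The remaining steps and the branches around glycolysis were read from lists, chosen with earlier results known, in the contrast of the trophectoderm-like classes. Of 7 other glycolytic genes with enough UMIs, 1 was at least 2-fold higher in the blastoid, the triose phosphate isomerase TPI1 at 2.20 (1.63 to 3.01), and 0 were lower, beside 13.6% and 11.5% of all 7387 genes. The mutase PGAM1 had 1.80 (1.40 to 2.32) and the lactate dehydrogenase LDHB 0.741 (0.577 to 0.949). The list's median log2 ratio was -0.05, beside 0.02 for all genes. Among 8 genes for regulators and the fate of pyruvate, 1 was at least 2-fold higher and 2 were lower, with a median log2 ratio of -0.21, beside the same shares of all genes. PFKFB3, which makes the activator of phosphofructokinase, was higher at 2.34 (1.59 to 3.51). The mitochondrial pyruvate carrier MPC1 at 0.194 (0.134 to 0.275) and the pyruvate dehydrogenase subunit PDHA1 at 0.478 (0.357 to 0.635) were lower.

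Of 7 genes for transport of glucose and lactate, 1 was at least 2-fold higher in the blastoid trophectoderm-like nuclei and 4 were lower, with a median log2 ratio of -1.02, beside 13.6% and 11.5% of all genes. The monocarboxylate transporter SLC16A7 had 39 UMIs and 16.1 CPM against 907 UMIs and 392 CPM, a ratio of 0.0411 (0.0290 to 0.0566), and the fructose transporter SLC2A5 had a ratio of 0.156 (0.118 to 0.203). The other 2 lower genes were the transporters SLC16A1 at 0.495 (0.439 to 0.556) and SLC2A8 at 0.478 (0.323 to 0.697). The glucose transporter SLC2A1 had a ratio of 1.12 (0.933 to 1.35), an interval that includes 1. BSG, the chaperone of monocarboxylate transporters, was higher at 2.59 (2.24 to 3.01). In the pentose phosphate list 2 of 5 genes were lower, RPIA at 0.432 (0.336 to 0.554) and RPE at 0.486 (0.373 to 0.629), and TKT had 1.57 (1.38 to 1.78). For gluconeogenesis only PC had enough UMIs, at 0.720 (0.653 to 0.793).

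Hypoxia-inducible factors are transcription factors known to switch on many glycolytic genes. Of 6 of their targets outside the pathway, NDRG1 was higher at 2.40 (1.64 to 3.58), EGLN1 at 0.361 (0.312 to 0.417) and P4HA2 at 0.385 (0.279 to 0.526) were lower, and the median log2 ratio was -0.57, beside 13.6% of all genes higher, 11.5% lower and a median of 0.02. The factor genes themselves stood at 2.29 (2.01 to 2.60) for EPAS1 and 1.72 (1.38 to 2.15) for HIF1A.

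Over the 7 classes, 6 of the members varied in like order. GAPDH, PGK1, ENO1, ALDOA, PFKL and PKM had Pearson correlations of log2(CPM + 10) with each other between 0.87 and 0.98, and HK2 had correlations between -0.61 and -0.83 with those 6 genes and PFKP. HK1 had correlations between -0.52 and -0.86 with the same 7 genes, and HK1 and HK2 had 0.31 with each other. Among 7087 other genes with at least 100 UMIs in each library, the 5 closest to the members summed were P4HB, NDUFB11, BTF3, GLIPR2 and SSR1, each at 0.995 or above. The closest to GAPDH were CALR, RNF181, ATP6V0B, RPL29 and GABARAP, and the closest to HK2 were CDC25A, KDM2A, CUL3, GABPA and AGFG1. The 7 points come from 2 libraries and share their depth and ribosomal protein share, so the coefficients are descriptions.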

How the data were processed

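Nuclei of 1 blastoid and 1 blastocyst library were counted by the authors as UMI counts per gene and barcode, in Cell Ranger, version 7.2.0 per the file headers and version 7.1.0, with Seurat 4.3.0, per the submitters' processing notes. The build, the annotation and the use of intronic reads are not given in the sources used here. Barcodes with at least 500 genes and under 10% mitochondrial UMIs were kept, and 30 and 5 likely doublets were removed by Scrublet score (scanpy 1.11.5). Each library was clustered with leidenalg 0.10.2 at resolution 0.5. Clusters could be named only for epiblast, hypoblast or trophectoderm. A name took at least 3 markers of that lineage, 1.5 times as many as those of the next class. Clusters that were shallow or held over 5% ribosomal protein UMIs got no such name. This rule was set after clusters had been seen. Counts were summed per class. A gene was counted as higher or lower at 2-fold or more, given at least 100 UMIs in the 2 sums. Ratios carry exact conditional 95% intervals, and counts under 3 were set to 3. PCR duplicates were collapsed by the UMIs. The scripts were tested on simulated data. Members and lists were chosen with earlier results of these data known. Named were all members, up to 2 genes at each end of a list, and the 5 genes most like the members summed, GAPDH and HK2. Marker genes, cytoplasmic messages, HKDC1, PFKM, ENO2, SLC16A1 and SLC2A8 were named in addition, after their values had been seen. Other scalings, filters, groupings and thresholds were tried.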

Additional observations from a re-analysis of the deposited data

Results flagged for a closer look

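The filters and the doublet step removed 43 blastoid and 116 blastocyst barcodes, of which 30 and 5 were called doublets. They enter no comparison, and the enzymes were present in them. The 9 enzymes summed to 4310 CPM (3899 to 4752) in the removed blastoid barcodes, from 403 of 93509 UMIs, with 165 UMIs of GAPDH and 13.2% ribosomal protein UMIs. They summed to 1099 CPM (945 to 1272) in the removed blastocyst barcodes, from 180 of 163719 UMIs, with 58 UMIs of GAPDH and 3.62% ribosomal protein UMIs. There were no control barcodes, and both sums lay above the level that a count of 0 allows.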

How the results depend on the processing

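No paired analysis was possible because each group had 1 library, and for the same reason no replicate could be left out. Over the alternatives, 233 counts of enzymes past 2-fold stayed within 1.5 times of those given and 31 did not, and no enzyme counted as past 2-fold changed direction. Between trophectoderm-like and epiblast-like nuclei, PFKL and PFKP, too few in UMIs to be counted, turned from log2 ratios of 1.53 and 1.25 to -0.01 and -1.90 with the marker gate. Where no reason is given, the cause was not tested. Below 4000 UMIs, the count of enzymes lower in the blastoid (1, HK1) was 0 when scaled by UMIs outside mitochondrial and ribosomal protein genes or by the median ratio of all genes, with means over nuclei, with under 5% mitochondrial UMIs and with a split at 3000 UMIs, and 2 with at least 20 UMIs in the 2 sums, a looser filter. The count of higher enzymes there (5) was 3 with means over nuclei and 2 with the split at 3000 UMIs. Between the trophectoderm-like classes the count of higher enzymes (2, GAPDH and ENO1) was 1 with the marker gate and 1 with the keratin-led cluster added, both times PFKP in place of those 2, and 4 at a 1.5-fold threshold. In the blastocyst, trophectoderm-like against epiblast-like nuclei (1 higher) gave 0 with means over nuclei, at least 1000 genes, no doublet removal or resolution 1.0. It gave 2 with the keratin-led cluster added, and 3 with at least 200 genes, at least 20 UMIs or 1.5-fold. Against hypoblast-like nuclei (0 higher, 0 lower) trophectoderm-like ones gave 2 higher with the marker gate, with the keratin-led cluster added and at 1.5-fold, 1 higher with at least 20 UMIs, and 1 lower at 1.5-fold. Epiblast-like against hypoblast-like nuclei (0 lower) gave 2 lower with at least 200 genes and 1 at 1.5-fold. With a split at 6000 UMIs, 0 enzymes were higher in shallower blastocyst nuclei (5 at 4000). The blastoid trophectoderm-like class against cluster 3 (0 higher) gave 1 with at least 20 UMIs and 2 at 1.5-fold. At 1.5-fold the deep comparison of the libraries gave 5 higher (3) and the shallow against deep blastoid nuclei 2 lower (1). Counts over all genes moved by over 1.5 times as well, 14 of 20 at 1.5-fold and 17 of 20 with at least 20 UMIs. With 2 times the markers of the next class, chosen after seeing the data, the blastoid cluster stays unnamed and its contrast has no value. Of the shares of nuclei with a UMI, 47 of those thinned to 1000 UMIs lay outside the interval at 2000 UMIs and 23 within it, fewer UMIs per nucleus by construction. Depth limits PFKP, PFKL and the small sums, such as the 287544 UMIs of the shallow blastocyst nuclei.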

Other observations

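Within the blastocyst, 2 of 10 genes for regulators and the fate of pyruvate were at least 2-fold higher in trophectoderm-like than in hypoblast-like nuclei and 1 was lower. Of 7 transport genes 2 were higher and 0 lower, and of 5 pentose phosphate genes 1 was higher and 3 lower, beside 11.6% and 13.2% of 8053 genes. PFKFB4, which sets the level of the phosphofructokinase activator, had 13.8 CPM in trophectoderm-like and 202 CPM in hypoblast-like nuclei, a ratio of 0.0686 (0.0465 to 0.0978). PDK1, which blocks pyruvate dehydrogenase, had a ratio of 3.20 (2.58 to 3.99), TIGAR 3.85 (2.47 to 6.17) and the pyruvate carboxylase PC 3.34 (2.97 to 3.76). The transporters SLC16A7 and SLC2A5 were higher in trophectoderm-like nuclei at 9.19 (7.69 to 11.1) and 3.19 (2.67 to 3.82), and the transketolase TKT was lower at 0.391 (0.349 to 0.437). EPAS1 had 348 UMIs in trophectoderm-like and 8 in hypoblast-like nuclei, a ratio of 61.7 (31.0 to 144).

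In nuclei of at least 4000 UMIs, 20 PFKFB4 UMIs in blastoid and 799 in blastocyst nuclei were counted, a ratio of 0.0383 (0.0233 to 0.0595). Of those 688 deep blastocyst nuclei 356 were hypoblast-like, a class not named in the blastoid. Between the trophectoderm-like classes the ratio was 0.358 (0.168 to 0.715), from 12 against 32 UMIs. PFKFB4 was low in all 3 blastoid classes, at 5.0 CPM in trophectoderm-like nuclei, 4.2 CPM in cluster 3 and 1.6 CPM in ribosomal-rich nuclei.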
